A study of Homo sapiens with 8 samples.

Results

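The alpha and beta tubulins described here are the genes TUBA1A, TUBA1B, TUBA1C, TUBA4A, TUBB, TUBB2A, TUBB2B, TUBB3, TUBB4B and TUBB6. They were chosen by name, but with earlier results of these data known. Of these 10 genes, 9 had a probe, with 15 probes in all. No probe carried the name TUBB6, which was not analysed here. Over the whole array, 31079 of 58162 probes carried a gene name, for 22428 genes, and shares of all probes include unnamed probes. Where a gene had several probes, the brightest on average was taken, and the others are given beside it. RNA came from OVSAHO and KURAMOCHI, both established ovarian cancer cell lines, cultured either with simvastatin, a statin that inhibits HMG-CoA reductase, or with L-778123, an inhibitor of the farnesyl and geranylgeranyl transferases that prenylate proteins. The 4 groups (OVSAHO with simvastatin, OVSAHO with L-778123, KURAMOCHI with simvastatin and KURAMOCHI with L-778123) had 2 one-color arrays each, and every array held RNA of drug-treated cells. Without an untreated group, a value higher with one drug cannot be told from a value lower with the other. Below, a gene that rose or fell with simvastatin was higher or lower than with L-778123, and no more is meant. The concentrations and culture times for the arrays are not stated in the methods. Each line is a single tumor-derived model, and the labels do not say that the 2 arrays of a group came from separate cultures, so the p-values measure the spread between these arrays.

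Alpha and beta tubulin form the heterodimer from which microtubules, the hollow polymers of the mitotic spindle and of intracellular transport, are built. Humans carry several genes for each, whose products differ mainly in the acidic C-terminal tail, where enzymes add glutamate, remove the last tyrosine and so change which motors and binding proteins attach. Tubulin mRNA is also known to be degraded when free tubulin accumulates, through a factor that recognizes the nascent protein on the ribosome. Paclitaxel, a standard drug for ovarian cancer and one of the agents that the study combined with statins, binds beta-tubulin, and TUBB3 has been much studied in connection with the response to taxanes.

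All 8 arrays lay on 1 slide, with a line of positions for each cell line and its own positions for each drug, and slide position therefore coincides with group and the effects of these cannot be told apart. Arrays had 75th percentiles between 324 and 437 intensity units, between 51.8% and 57.5% of probes were well above background on an array, and 0 spots were saturated. Levels are given as log2 intensity relative to the 75th percentile of the array, and since probes differ in how they bind, levels are compared between groups and not between genes. All 11 ovarian serous epithelium markers were above background on both arrays of every group. Summed over the list, relative to the 75th percentile, they gave 626 to 636 in OVSAHO with simvastatin and 698 to 745 with L-778123. In KURAMOCHI the sums were 455 to 462 with simvastatin and 764 to 787 with L-778123. Most of each sum came from KRT7 and KRT18 in OVSAHO and from KRT18 in KURAMOCHI. Averaged over both drugs, single markers differed between the lines in both directions. The largest each way were CDH1, 54.9-fold higher in OVSAHO, and KRT8, 1.87-fold higher in KURAMOCHI. Of the markers of other cell types, 0 of 6 for fibroblasts were above background on both arrays of the OVSAHO groups and 2 in the KURAMOCHI groups, as were 2 or 3 of 4 for endothelium and 3 of 4 measured for leukocytes in each group. Replicate arrays correlated at 0.9949 to 0.9958, and at its brightest probe no tubulin differed by more than 0.49 on the log2 scale between 2 replicate arrays. The protein and transcript sequences of TUBA1A, TUBA1B and TUBA1C, and those of TUBB2A and TUBB2B, are very similar, and hybridization of one to the probe of another was not tested.

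The stretches of 250 bases upstream of the start of transcription are shown for 5 members that stand for the patterns described next, TUBB3, TUBB2A and TUBA4A, which were higher with simvastatin in OVSAHO and lower in KURAMOCHI, and TUBB and TUBB4B, which were lower in both. They come from RefSeq on the build GRCh38.p14, and each is the sequence of the gene's own strand. Capitals mark CCAAT, the box bound by NF-Y, or ATTGG, the same box on the other strand, and TTTGAA or TTCGAA, letters of the cell cycle homology region found at many genes of the dividing cell. All were searched on both strands, and TTCGAA reads the same on both.
TUBB3, chr16:89923092-89923341, plus strand: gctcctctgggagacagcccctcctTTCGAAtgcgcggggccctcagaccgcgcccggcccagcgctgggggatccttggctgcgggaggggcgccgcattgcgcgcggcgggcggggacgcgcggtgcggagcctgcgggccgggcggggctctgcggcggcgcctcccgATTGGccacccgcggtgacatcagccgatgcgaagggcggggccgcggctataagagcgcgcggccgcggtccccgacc
TUBB2A, chr6:3157545-3157794, minus strand: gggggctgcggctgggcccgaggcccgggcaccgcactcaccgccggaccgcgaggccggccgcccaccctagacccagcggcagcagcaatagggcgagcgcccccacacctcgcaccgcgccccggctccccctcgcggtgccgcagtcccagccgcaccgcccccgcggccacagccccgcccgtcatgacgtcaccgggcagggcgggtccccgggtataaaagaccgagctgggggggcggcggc
TUBA4A, chr2:219253919-219254168, minus strand: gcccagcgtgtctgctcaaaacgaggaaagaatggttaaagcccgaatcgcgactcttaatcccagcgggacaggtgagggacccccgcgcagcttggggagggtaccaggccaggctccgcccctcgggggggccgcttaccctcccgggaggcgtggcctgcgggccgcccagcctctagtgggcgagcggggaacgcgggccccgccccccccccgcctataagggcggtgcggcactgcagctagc
TUBB, chr6:30720102-30720351, plus strand: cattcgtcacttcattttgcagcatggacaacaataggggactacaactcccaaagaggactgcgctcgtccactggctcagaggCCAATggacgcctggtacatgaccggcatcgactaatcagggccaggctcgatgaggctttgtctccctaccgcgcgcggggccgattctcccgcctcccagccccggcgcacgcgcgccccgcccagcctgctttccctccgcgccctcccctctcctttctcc
TUBB4B, chr9:137241037-137241286, plus strand: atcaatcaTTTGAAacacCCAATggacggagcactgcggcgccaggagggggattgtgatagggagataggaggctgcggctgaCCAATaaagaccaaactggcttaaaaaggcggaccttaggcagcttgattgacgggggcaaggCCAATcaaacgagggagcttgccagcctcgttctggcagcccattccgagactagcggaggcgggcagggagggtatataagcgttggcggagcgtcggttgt

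In these windows TUBB4B held 3 CCAAT boxes, with their first base on the shown strand 232, 166 and 103 bases before the start of transcription, and a TTTGAA 242 bases before it. The window of TUBB held 1 CCAAT box, 165 bases before this start, while that at the other TUBB start listed by RefSeq held none. The window of TUBB3 held 1 box, on the other strand and 79 bases before the start, and a TTCGAA, and that at its other listed start held none of these letters. The windows of TUBB2A and TUBA4A held none of them. Over the 9 measured genes, CCAAT was present upstream of 6, TUBA1A, TUBA1C, TUBB, TUBB2B, TUBB3 and TUBB4B, in 61.5% of their 13 starts, against 32.0% of 35116 promoters of the same length. Windows of neighbouring TUBA1C starts overlap and share a CCAAT, which is counted at each, so the 13 starts are not separate promoters. TTTGAA was present upstream of TUBA1C and TUBB4B and in 13.3% of all promoters, and TTCGAA upstream of TUBB3 and in 1.19%. Genes lower in both lines and genes that went opposite ways in the lines both included windows with and without CCAAT, and a match describes letters, not binding.

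In OVSAHO, the tubulins divided. With simvastatin, TUBB3, TUBB2B, TUBB2A and TUBA4A were at least 2-fold higher than with L-778123 and TUBA1C was slightly higher, while TUBA1B, TUBB and TUBB4B were lower and TUBA1A did not pass the test. In KURAMOCHI, all 9 measured tubulins were lower with simvastatin than with L-778123. A difference was taken to pass at an adjusted p under 0.05 by limma with Benjamini-Hochberg adjustment over all 33752 probes tested, and "2-fold" below means that it passed and reached that size. In OVSAHO, 5 of 9 members passed as higher, against 23% of all probes, and 3 as lower, against 25.1%; at 2-fold, 4 were higher, against 4.77% of all probes, and 0 lower, against 6.19%. In KURAMOCHI, 9 of 9 passed as lower, against 17.3% of all probes, and 0 as higher, against 14%. At 2-fold, 4 were lower, against 3.55%, and 0 higher, against 2.05%. Whether TUBB2B and TUBB3 passed in KURAMOCHI depended on the processing, as given below. In OVSAHO, the 4 at 2-fold include TUBB2B, which is set against arrays below background and was below 2-fold with normexp. The median log2 fold change of the members was 0.29 in OVSAHO and -0.96 in KURAMOCHI, where the medians of all probes were 0.01 and 0.00096. The OVSAHO median is the value of TUBA1C at its brightest probe. The second probe of TUBA1C gave -0.28 there, so this median depends on the choice of probe.

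**Figure D1:**
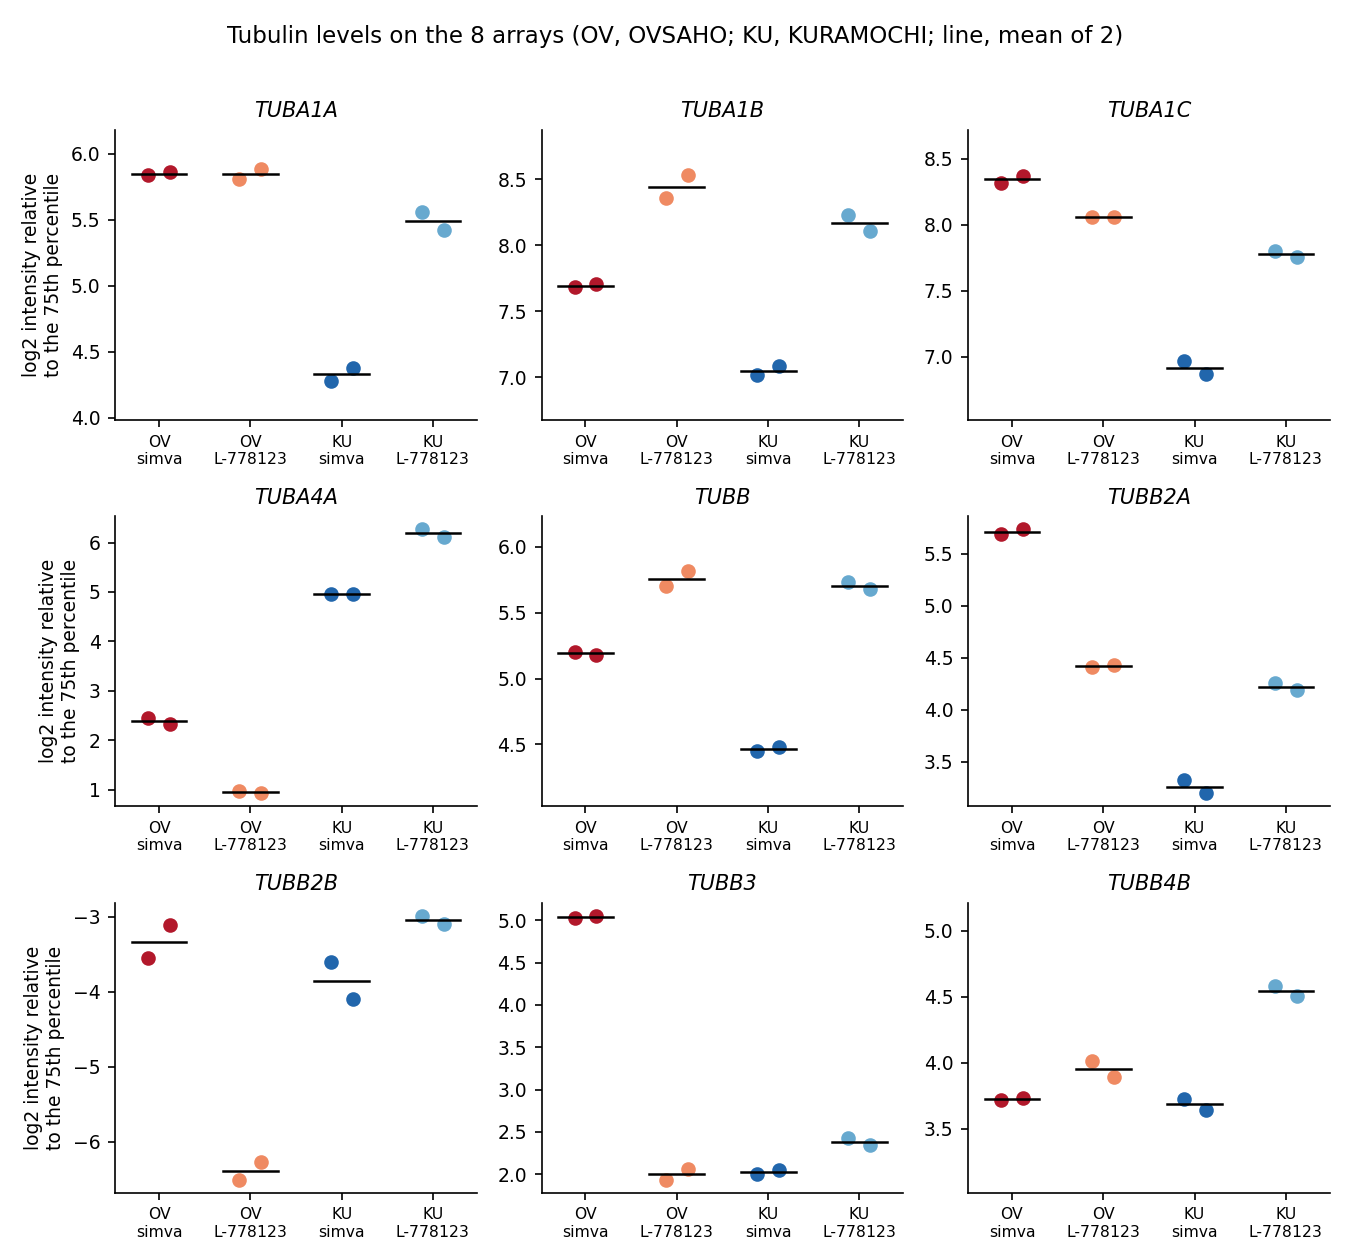
Level of each measured tubulin on the 8 arrays, as log2 intensity relative to the 75th percentile of the array (vertical axis, a separate scale for each gene), by group (horizontal axis); points are arrays and lines the mean of 2. TUBB3 in OVSAHO with simvastatin, at 5.02 and 5.05, lies above its other 6 arrays, and TUBA4A is higher in both KURAMOCHI groups than in both OVSAHO groups.

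TUBB3, the class III beta-tubulin typical of neurons and also found in many carcinomas, measured 5.02 and 5.05 in OVSAHO with simvastatin. It measured 1.94 and 2.06 in OVSAHO with L-778123, 2.01 and 2.04 in KURAMOCHI with simvastatin, and 2.43 and 2.35 in KURAMOCHI with L-778123. The OVSAHO simvastatin arrays were high and the other groups low, and the lowest groups, OVSAHO with L-778123 and KURAMOCHI with simvastatin, overlapped (log2 difference 0.03, limma adjusted p = 0.756). In OVSAHO, TUBB3 was 8.22-fold higher with simvastatin (log2 fold change 3.04, SE 0.068, limma adjusted p = 1.56e-05), the place 107 from the highest of 33752 probes. In KURAMOCHI it fell with simvastatin by 0.36 on the log2 scale (SE 0.068, limma adjusted p = 0.0124), the smallest fold change of the 9 members in that line, which did not pass without KURAMOCHI simvastatin replicate 1 (adjusted p = 0.0649) or KURAMOCHI L-778123 replicate 1 (adjusted p = 0.0634).

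TUBB2A, a beta-tubulin of many tissues, measured 5.69 and 5.73 in OVSAHO with simvastatin and 4.41 and 4.43 with L-778123. In KURAMOCHI it measured 3.32 and 3.20 with simvastatin and 4.26 and 4.19 with L-778123. At this probe no groups overlapped, and the lines were closest with L-778123 (log2 difference 0.20, limma adjusted p = 0.0391). With simvastatin TUBB2A rose 2.45-fold in OVSAHO (log2 fold change 1.29, SE 0.066, limma adjusted p = 8.21e-05) and fell by 0.96 in KURAMOCHI (SE 0.066, limma adjusted p = 5.22e-04). Its second probe gave drug contrasts of 1.40 and -0.97, but with L-778123 it was lower in OVSAHO than in KURAMOCHI (log2 difference -0.23, limma adjusted p = 0.0299), so that the order of the lines with that drug depended on the probe.

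TUBA4A, an alpha-tubulin whose gene lacks the codon for the final tyrosine, differed most between the lines. It measured 2.45 and 2.32 in OVSAHO with simvastatin and 0.98 and 0.93 with L-778123, against 4.97 and 4.97 in KURAMOCHI with simvastatin and 6.27 and 6.11 with L-778123. All 4 KURAMOCHI arrays were above all 4 OVSAHO arrays, and the drug groups were in opposite order in the lines. With simvastatin it rose 2.70-fold in OVSAHO (log2 fold change 1.43, SE 0.080, limma adjusted p = 1.04e-04) and was 2.33-fold lower in KURAMOCHI (log2 fold change -1.22, SE 0.080, limma adjusted p = 4.64e-04). The other probes of TUBA4A gave log2 fold changes of 1.29 and 0.27 in OVSAHO and -1.13 and -1.15 in KURAMOCHI, so that the size in OVSAHO depended on the probe and the direction did not.

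TUBB2B, a beta-tubulin of the developing brain, was near background. It measured -3.55 and -3.11 in OVSAHO with simvastatin, and -6.50 and -6.27 with L-778123, where neither array was well above background. In KURAMOCHI it measured -3.61 and -4.10 with simvastatin, where 1 of 2 arrays was well above background, and -2.98 and -3.09 with L-778123. By the deposited intensities it was at least 3.01-fold higher in OVSAHO with simvastatin. This bound uses the lowest signal among probes above background on each L-778123 array. The fitted log2 fold change, 3.06 (limma adjusted p = 2.16e-04), rests on values below background. With normexp background correction the same log2 fold change was 0.76, below that bound and below 2-fold. In KURAMOCHI it fell by 0.81 with simvastatin (SE 0.21, limma adjusted p = 0.0364), a difference that did not pass in the fit of that line alone (adjusted p = 0.0616) or without KURAMOCHI simvastatin replicate 2, either KURAMOCHI L-778123 array or either OVSAHO L-778123 array (adjusted p = 0.0564 to 0.132). KURAMOCHI with L-778123 and OVSAHO with simvastatin, the 2 highest groups, did not differ beyond their spread (log2 difference 0.29, limma adjusted p = 0.266), nor did OVSAHO with simvastatin and KURAMOCHI with simvastatin (0.52, limma adjusted p = 0.0714).

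TUBA1C, an alpha-tubulin of dividing cells, measured 8.32 and 8.37 in OVSAHO with simvastatin and 8.06 and 8.06 with L-778123. It measured 6.96 and 6.87 in KURAMOCHI with simvastatin and 7.80 and 7.75 with L-778123. In OVSAHO the difference was small (log2 fold change 0.29, SE 0.061, limma adjusted p = 0.0115), and in KURAMOCHI TUBA1C fell by 0.86 (SE 0.061, limma adjusted p = 5.68e-04). The second probe gave -0.28 in OVSAHO, which did not pass (SE 0.22, limma adjusted p = 0.326), and -1.53 in KURAMOCHI, where its simvastatin arrays lay apart at 4.10 and 4.80, so that the probes of TUBA1C disagreed in sign in OVSAHO. Without OVSAHO simvastatin replicate 2 the brighter probe did not pass there either (adjusted p = 0.0591).

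TUBA1A, the alpha-tubulin most abundant in neurons, measured 5.84 and 5.86 in OVSAHO with simvastatin and 5.81 and 5.89 with L-778123, and these arrays overlapped. It measured 4.28 and 4.38 in KURAMOCHI with simvastatin and 5.56 and 5.42 with L-778123. In OVSAHO its log2 fold change was 4.7e-05 (SE 0.073) and did not pass (limma adjusted p = 1), and in KURAMOCHI it was 2.24-fold lower with simvastatin (log2 fold change -1.16, SE 0.073, limma adjusted p = 4.19e-04).

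TUBB, TUBA1B and TUBB4B, the common beta- and alpha-tubulins of most proliferating cells, were lower with simvastatin in both lines. TUBB measured 5.20 and 5.18 in OVSAHO with simvastatin and 5.70 and 5.81 with L-778123, and in KURAMOCHI 4.45 and 4.48 with simvastatin and 5.73 and 5.68 with L-778123. At this probe the L-778123 arrays of the 2 lines overlapped (log2 difference 0.05, limma adjusted p = 0.492), and both simvastatin groups were below them. TUBB fell by 0.57 in OVSAHO (SE 0.062, limma adjusted p = 0.00105) and by 1.24 in KURAMOCHI (SE 0.062, limma adjusted p = 2.48e-04), and its other probes gave -0.60 and -0.36 in OVSAHO and -1.21 and -1.28 in KURAMOCHI. With L-778123 these probes did not overlap between the lines and were higher in OVSAHO, by 0.14 (limma adjusted p = 0.0567) and 0.40 (limma adjusted p = 0.00238). At the last of them OVSAHO with simvastatin, at 4.94 and 4.93, lay between the KURAMOCHI L-778123 arrays, at 4.96 and 4.85.

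TUBA1B, a widely expressed alpha-tubulin, measured 7.68 and 7.70 in OVSAHO with simvastatin and 8.36 and 8.54 with L-778123. It measured 7.02 and 7.08 in KURAMOCHI with simvastatin and 8.23 and 8.11 with L-778123. In both lines the simvastatin arrays were the lower ones, by 0.75 in OVSAHO (log2 fold change -0.75, SE 0.083, limma adjusted p = 0.00103) and by more than 1 log2 unit in KURAMOCHI (log2 fold change -1.12, SE 0.083, limma adjusted p = 6.45e-04). TUBB4B, a beta-tubulin also of cilia, measured 3.72 and 3.73 in OVSAHO with simvastatin and 4.01 and 3.89 with L-778123, and 3.73 and 3.65 in KURAMOCHI with simvastatin and 4.58 and 4.51 with L-778123. The simvastatin arrays of the 2 lines overlapped (log2 difference 0.04, limma adjusted p = 0.659). TUBB4B fell by 0.23 in OVSAHO, close to the threshold (SE 0.069, limma adjusted p = 0.0403; of the 8 arrays left out in turn, it passed only without OVSAHO L-778123 replicate 2), and by 0.86 in KURAMOCHI (SE 0.069, limma adjusted p = 8.24e-04).

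**Figure D2:**
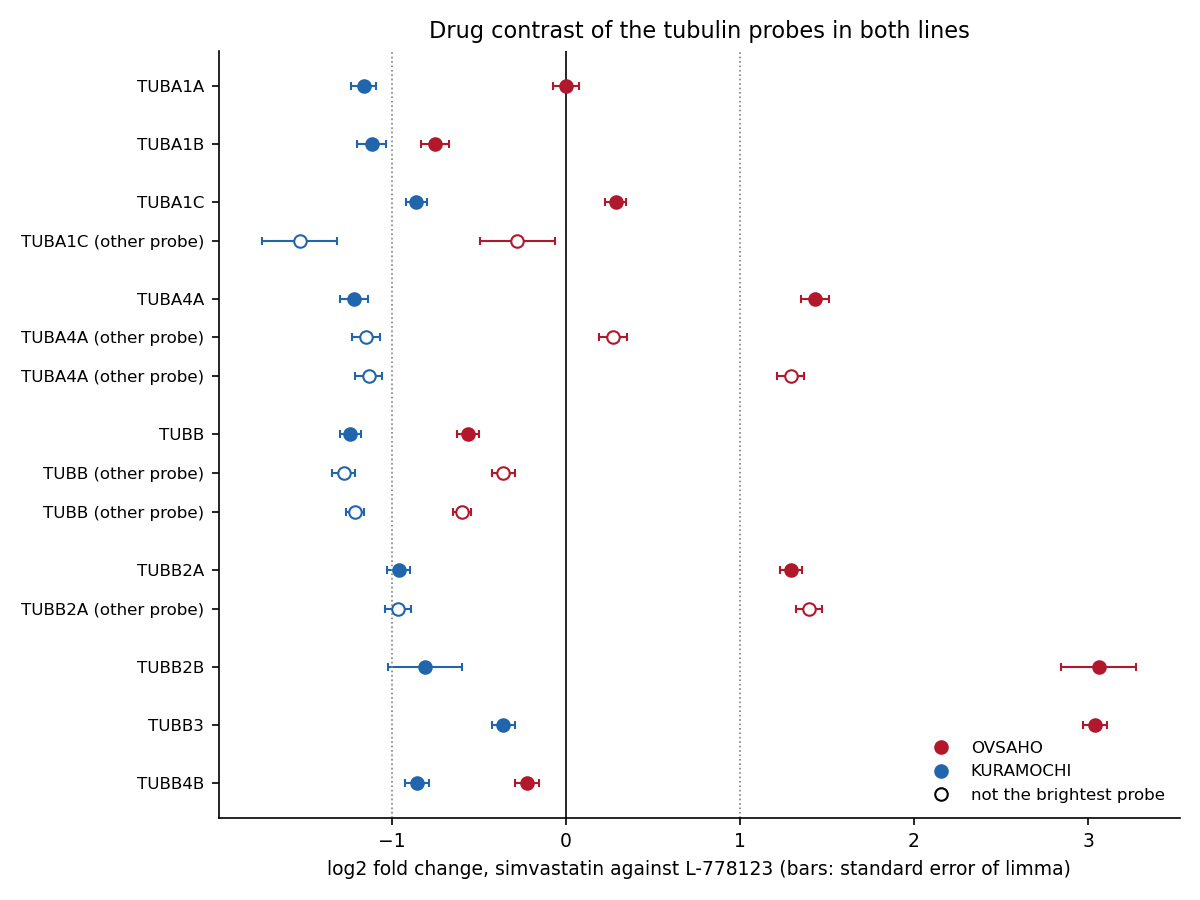
Log2 fold change of simvastatin against L-778123 (horizontal axis; bars, standard error of limma; dotted lines, 2-fold) for the 15 tubulin probes, in OVSAHO (red) and KURAMOCHI (blue); filled points are the brightest probe of a gene and open points its other probes. All 15 probes are below 0 in KURAMOCHI, while in OVSAHO they run from -0.75 for TUBA1B to 3.06 for TUBB2B. The TUBB2B point rests on OVSAHO L-778123 arrays below background, where the deposited intensities give only a bound of at least 3.01-fold.

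The drug contrast itself was compared between the lines, as the log2 fold change in OVSAHO minus that in KURAMOCHI. This difference passed as higher for 8 of 9 members, against 11.2% of all probes, and as lower for 0, against 11.7%; 6 members were at least 2-fold higher, against 3.86%, and 0 lower, against 3.24%. It was 3.40 for TUBB3 (SE 0.096, limma adjusted p = 1.55e-04), 2.65 for TUBA4A (SE 0.11, limma adjusted p = 2.77e-04) and 2.25 for TUBB2A (SE 0.093, limma adjusted p = 2.61e-04). It was close to 1 log2 unit for TUBA1A, at 1.16, and TUBA1C, at 1.15, and smaller for TUBB, at 0.67, and TUBB4B, at 0.63. For TUBA1B it was 0.37 and did not pass (SE 0.12, limma adjusted p = 0.0765). For TUBB2B it was 3.87, a value that rests on the arrays below background and was 0.97 with normexp. Counted by direction after the values had been seen, 4 members were at least 2-fold higher in OVSAHO and passed as lower in KURAMOCHI. These were TUBA4A, TUBB2A, TUBB2B and TUBB3, and 0.323% of all probes did the same. Another 3, TUBA1B, TUBB and TUBB4B, passed as lower in both lines, as did 11.3% of all probes. The patterns were drawn from these values, so the shares are a description and no test. Under some processing alternatives TUBB2B and TUBB3 did not pass in KURAMOCHI, nor TUBB4B in OVSAHO. With normexp TUBB2B was below 2-fold in OVSAHO.

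Between the lines, averaged over both drugs, 6 of 9 members passed as higher in OVSAHO, against 40.2% of all probes, and 3 as lower, against 37.5%. At 2-fold, 2 members were higher in OVSAHO, against 17.5% of all probes, TUBB2A (log2 fold change 1.32) and TUBB3 (1.31), and 2 were lower, against 16.1%, TUBA4A (-3.90) and TUBB2B. The second probe of TUBB2A gave 0.95, short of 2-fold. The fitted value of TUBB2B, -1.41, rests on the OVSAHO L-778123 arrays, which were not above background, and was -0.29 with normexp; with simvastatin the lines did not pass as different (0.52 higher in OVSAHO, limma adjusted p = 0.0714). TUBA4A had the widest difference of the members (SE 0.057, limma adjusted p = 1.32e-07). The line difference of TUBB3 depended on the drug: it was 3.01 with simvastatin (limma adjusted p = 1.15e-06) and -0.39 with L-778123 (limma adjusted p = 0.00302). With L-778123, TUBB2B was at least 3.68-fold lower in OVSAHO than in KURAMOCHI (fitted log2 difference -3.35, limma adjusted p = 3.7e-05). This bound holds only for the background correction of the deposited intensities, and the comparison was not fitted with normexp.

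The other tubulin genes and the enzymes and partners of tubulin were read from lists chosen by function, and the genes named from them are the largest that passed at 2-fold. For comparison with these and later list counts, 23% of all probes passed as higher and 25.1% as lower in OVSAHO. In KURAMOCHI these shares were 14% and 17.3%. Of 9 tested members among the other tubulin genes, which hold gamma-, delta- and epsilon-tubulin and tissue-restricted isotypes, 1 passed as higher and 4 as lower in OVSAHO, and 2 as higher and 4 as lower in KURAMOCHI. TUBA8, an alpha-tubulin of restricted expression, was the only one at 2-fold, with a log2 fold change of 1.03 in KURAMOCHI (SE 0.091, limma adjusted p = 0.0011), and its difference between the lines was -1.47, opposite in sign to those of the 9 members. Of the 10 tested genes of the gamma-tubulin ring complex, which nucleates microtubules, 6 passed as lower and 1 as higher in OVSAHO. In KURAMOCHI 3 passed as lower and 0 as higher, with 0 at 2-fold in either line. TUBG1 and TUBG2, lower in both lines, belong to this list and to the other tubulin genes and are counted in each.

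Of 19 genes of tubulin folding (the chaperonin CCT, prefoldin and the tubulin cofactors), 3 passed as higher and 5 as lower in OVSAHO, against 23% and 25.1% of all probes. In KURAMOCHI 1 passed as higher and 7 as lower, against 14% and 17.3%. The medians were -0.06 in OVSAHO and -0.11 in KURAMOCHI, with 0 genes at 2-fold in either line. Of 8 genes of tubulin mRNA autoregulation, which recognize nascent tubulin and recruit the CCR4-NOT deadenylase, 1 passed as higher and 2 as lower in OVSAHO and 0 as higher and 1 as lower in KURAMOCHI, with medians of -0.12 and 0.03. Of 19 enzymes of tubulin modification, 9 passed as higher and 5 as lower in OVSAHO, with a median of 0.23. Those at 2-fold were TTLL7, a polyglutamylase with a preference for beta-tubulin, at 1.08 (limma adjusted p = 5.95e-04), and AGBL2, a carboxypeptidase of the same tails, at 1.01 (limma adjusted p = 0.00126). In KURAMOCHI, 3 passed as higher and 3 as lower, and TTLL9, another ligase of this family, was at 2-fold with 1.17 (limma adjusted p = 0.00264).

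Among 22 microtubule binding proteins, 12 passed as higher with simvastatin in OVSAHO and 4 as lower, against 23% and 25.1% of all probes, with a median of 0.44. In KURAMOCHI 5 passed as higher and 4 as lower, against 14% and 17.3% of all probes, with a median of -0.05. The 12 include MAPRE3, named after its values were seen, which was above background on 0 OVSAHO arrays, so that its contrast there is not a measured difference. The 3 largest in OVSAHO were DCLK1, a microtubule-bound kinase, at 2.05 (SE 0.083, limma adjusted p = 4.65e-05), MAP1B, an axonal microtubule protein, at 1.95 (SE 0.056, limma adjusted p = 2.04e-05), and TPPP, which bundles microtubules, at 1.40 (SE 0.066, limma adjusted p = 6.83e-05). The drug contrast of MAP1B and DCLK1 also differed between the lines, by 2.78 and 2.35 (limma adjusted p = 1.55e-04 and 3.84e-04). Of the 3 tested stathmins, proteins that bind tubulin dimers, 2 passed as higher and 1 as lower with simvastatin in OVSAHO, and 1 as higher and 1 as lower in KURAMOCHI. STMN3 rose in both lines, by log2 fold changes of 1.57 in OVSAHO (SE 0.078, limma adjusted p = 7.83e-05) and 0.83 in KURAMOCHI (SE 0.078, limma adjusted p = 0.00137). STMN1 fell by 0.61 in OVSAHO (SE 0.053, limma adjusted p = 4.47e-04) and by 0.69 in KURAMOCHI (SE 0.053, limma adjusted p = 7.33e-04). The third, STMN4, was well above background only in OVSAHO with simvastatin and was tested through that group, so it had to differ; it was at least 13.5-fold higher there than with L-778123, given as a description. Of 11 severing and depolymerizing proteins, 6 passed as lower in each line and 1 as higher in OVSAHO. Those at 2-fold in OVSAHO were KIF18A (-1.35) and KIF2C (-1.15), kinesins that shorten microtubules in mitosis, and FIGNL1 (-1.14), an ATPase related to severing enzymes.

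**Figure D3:**
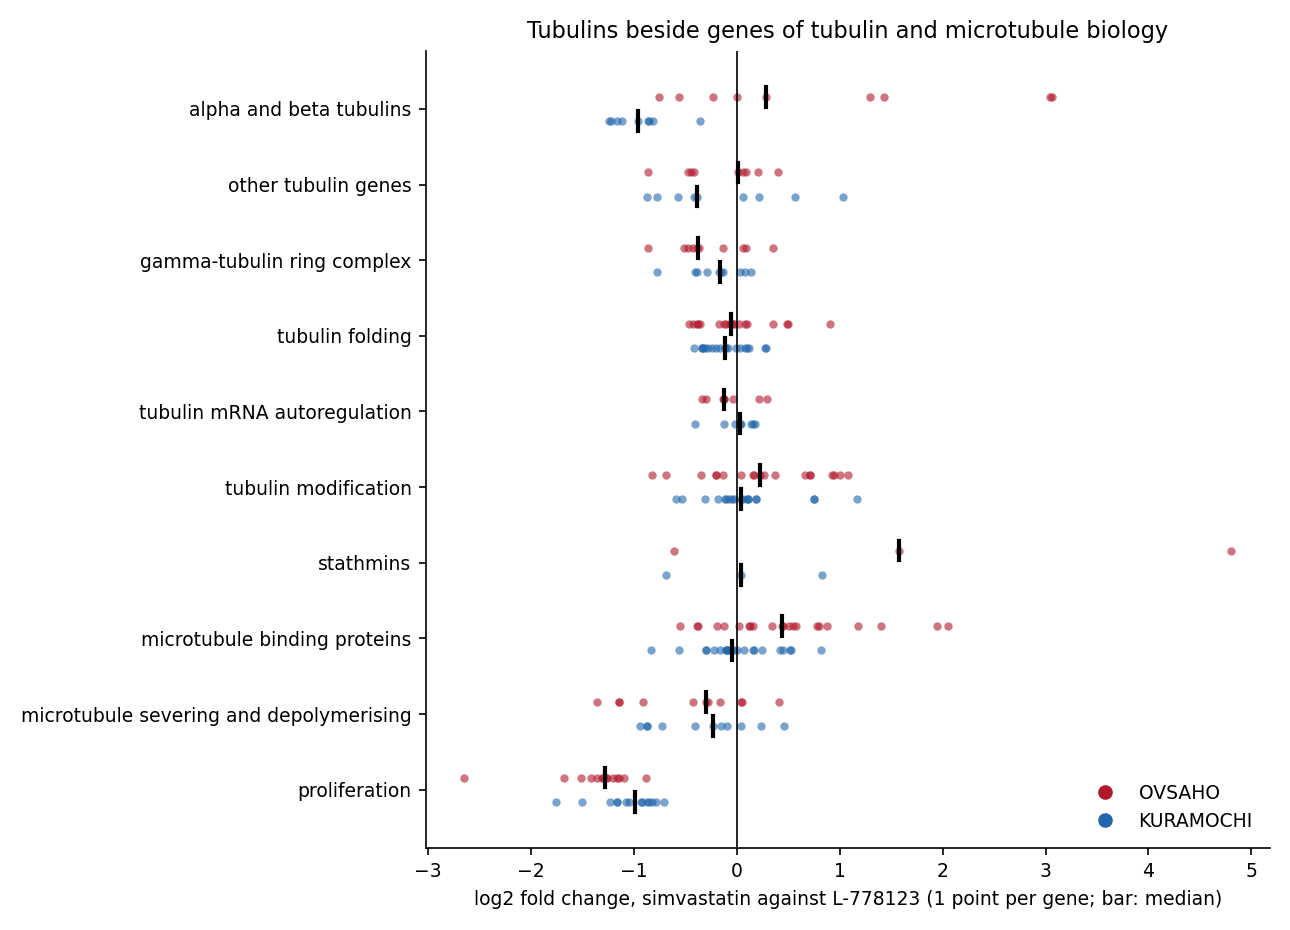
Log2 fold change of simvastatin against L-778123 (horizontal axis) of the measured tubulins and of the genes of each list (rows), in OVSAHO (red) and KURAMOCHI (blue); each point is a gene at its brightest probe and black bars are medians. The tubulin medians are 0.29 in OVSAHO and -0.96 in KURAMOCHI, and those of the proliferation genes -1.29 and -0.99. The tubulin median in OVSAHO is the brightest probe of TUBA1C and depends on that choice of probe. The OVSAHO points of TUBB2B and STMN4 are set against arrays below background, and that of MAPRE3 is below background with both drugs.

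Genes of proliferation differed between the drug groups in both lines. All 14 tested passed as lower with simvastatin in OVSAHO, 13 of them at 2-fold, and all 14 in KURAMOCHI, 7 at 2-fold, with medians of -1.29 and -0.99. Their summed level, relative to the 75th percentile, was 89.0 to 90.3 in OVSAHO with simvastatin against 208 to 218 with L-778123, and 76.5 to 78.0 in KURAMOCHI with simvastatin against 151 to 158 with L-778123. All 14 were above background on both arrays of every group. Their part in the lower tubulins was not tested. The difference of their contrast between the lines passed as lower for 3 of 14, against 11.7% of all probes. It passed as higher for 0, against 11.2%, where 8 of 9 tubulins passed as higher.

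Since TUBB3, TUBB2B and MAP1B are known from neurons, neuron markers were also read. Of 8, 4 were above background on both arrays in each OVSAHO group and 2 in each KURAMOCHI group, and 3 and 6 of them were on no array. Their summed level was 4.46 to 4.67 in OVSAHO with simvastatin, 3.08 to 4.73 in OVSAHO with L-778123, 3.71 to 4.29 in KURAMOCHI with simvastatin and 3.15 to 4.0 in KURAMOCHI with L-778123, and the OVSAHO groups overlapped. RBFOX3 made up most of each of these sums, which say little of the other markers. SYP and SYN1 were above background on all OVSAHO arrays and on no KURAMOCHI array. Of the 4 tested, SYP, a protein of synaptic vesicles, rose with simvastatin in OVSAHO (log2 fold change 1.68, SE 0.16, limma adjusted p = 6.41e-04). The other 3 did not pass in either line. For the list of 7 statin response genes, 6 passed as higher with simvastatin in OVSAHO and 7 in KURAMOCHI, with medians of 0.54 and 1.53.

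The genes whose levels followed a tubulin most closely over the 8 arrays were read for TUBA4A, which had the widest range of group means, and for TUBB. The arrays fall into 4 pairs of replicates, so these correlations rest on 4 groups and are given as a description among 16953 other genes. Among the 5 closest to TUBA4A were PRR5L, SLC2A1, AKAP12 and LMF1, with Pearson's r of 0.999 to 0.997. The 5 closest to TUBB were KRT83, RRM1, AKIP1, TUBA1B and DEF8, with r of 0.995 to 0.985, and TUBA1B, a member itself, had 0.985.

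**Figure D4:**
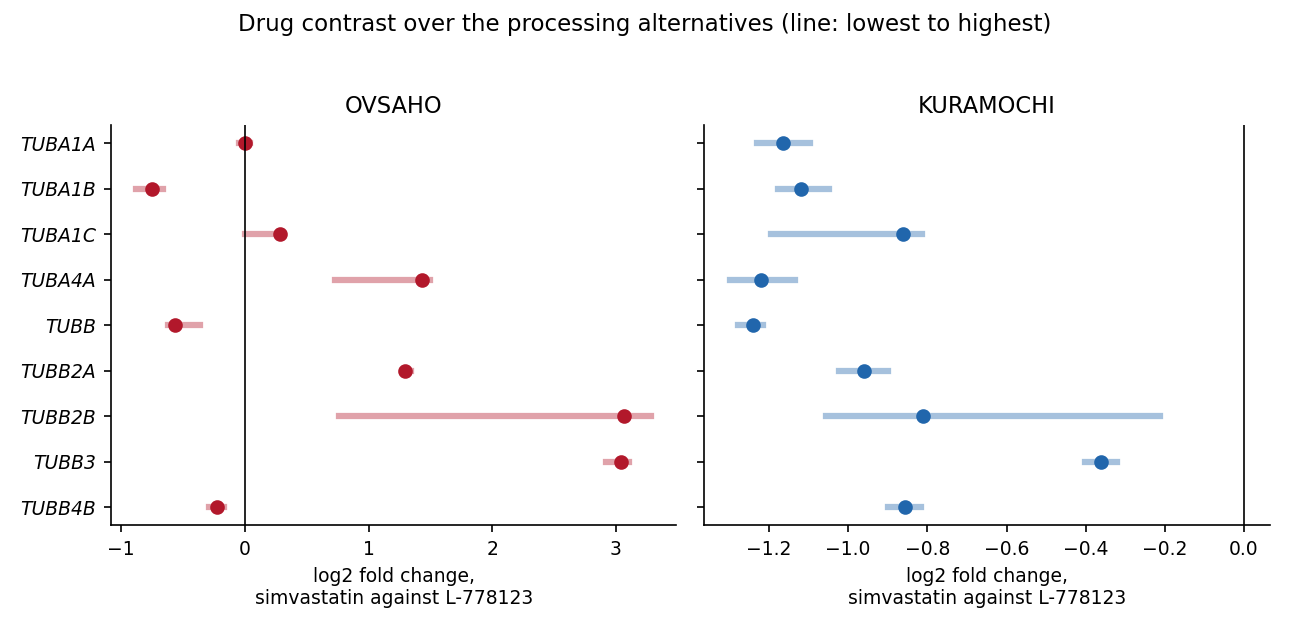
Log2 fold change of simvastatin against L-778123 (horizontal axis, a separate scale for each line) of the measured tubulins in OVSAHO (left) and KURAMOCHI (right); points are the values reported and thick lines run from the lowest to the highest over the processing alternatives. TUBB3 stays between 2.92 and 3.10 in OVSAHO, while TUBB2B runs from 0.76 to 3.28.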

How the data were processed

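RNA from 4 groups of 2 one-color arrays was measured. The authors extracted the scans with Feature Extraction 11.5.1.1 and deposited, per spot, a processed intensity corrected for background within the array, not normalized between arrays, and a table of processed intensity whose distribution was equal on all arrays. Control spots and outlier spots (58 to 99 per array) were removed. Each array was scaled to its 75th percentile on the log2 scale, as in the methods, and spots of a probe were averaged. Of 58162 probes, 33752 rose well above background in every array of some group and entered limma 3.58.1 in R 4.3.3 (1 mean per group, Benjamini-Hochberg adjustment). On data simulated for OVSAHO with 33752 probes, the test recovered 82% of 200 changed probes with 15 false calls. All planted changes were well above 2-fold and larger than most of the tubulin contrasts. Far fewer probes were changed there than passed in OVSAHO. These figures therefore do not describe how well smaller contrasts are found. Arrays give no read depth; their number limits the precision. Probes were named through RefSeq accessions; the array design is on another build (hg19) than the promoters, and only names were carried over. Named were all members and, per list, up to 3 genes at 2-fold in each direction, and the 5 genes most like TUBA4A and TUBB over the arrays, of which 1 is not reported here. The members and lists were chosen with earlier results of these data known. Alternatives were normexp (offset 50, on median intensities), quantile normalization, scaling on bright probes alone, the authors' table, other filters and thresholds, the median over probes, groups alone, the replicate block, Tukey's test as the methods use it, and each array left out. Figures used matplotlib 3.10.9 in Python 3.11.15.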

Additional observations from a re-analysis of the deposited data

Results flagged for a closer look

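For 8 tubulins the log2 fold change of simvastatin against L-778123 differed between the lines by limma's test of the difference (OVSAHO minus KURAMOCHI, 2 arrays per group). The difference was 3.87 for TUBB2B, with OVSAHO arrays below background, 3.40 for TUBB3, 2.65 for TUBA4A, 2.25 for TUBB2A, 1.16 for TUBA1A, 1.15 for TUBA1C, 0.67 for TUBB and 0.63 for TUBB4B. No group was large enough to test for an outlying array.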

How the results depend on the processing

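Over the alternatives, 288 of the member counts stayed within 1.5 times the reported count and 8 did not. Counts of 0 that stayed 0 are included, and the loss of single members can stay within this range. The tally therefore says little about how stable the calls are. With a threshold of 1.5-fold, 1 member was lower in OVSAHO, 8 were lower in KURAMOCHI and 4 were higher in OVSAHO than in KURAMOCHI; with the adjusted p alone these counts were 3, 9 and 6. The members at 2-fold lower in OVSAHO than in KURAMOCHI were 1 with normexp and 1 with the filter to probes above background on all 8 arrays. The log2 fold change of TUBA1A in OVSAHO, not called, was -0.045 with normexp and -0.037 to 0.037 with arrays left out. With the methods' test, a 2-factor model with Tukey's test, there were adjusted p-values of 0.142 for TUBB4B in OVSAHO, and 0.282 for TUBB2B and 0.0646 for TUBB3 in KURAMOCHI. TUBA1C in OVSAHO lost its call with the median over its probes (0.0026), quantile normalization (0.16), the authors' table (0.16), no filter (adjusted p = 0.0535) and without OVSAHO simvastatin replicate 2 (0.26); TUBB4B in OVSAHO lost it in 10 settings, adjusted p up to 0.154, and TUBB2B in KURAMOCHI in 10. TUBB3 in KURAMOCHI lost it in 4, among them without KURAMOCHI simvastatin replicate 1 (-0.34) and without KURAMOCHI L-778123 replicate 1 (-0.32). TUBA4A in OVSAHO was 0.73 with the median over its probes, and TUBB2B was 0.76 with normexp, against 0.97 for its difference between the lines. TUBA1B averaged over drugs was 0.13 with quantile normalization and with the authors' table, no longer past the threshold, and its difference between the lines passed with normexp (adjusted p = 0.0281) and with the stricter filter (adjusted p = 0.0489). The cause of these changes was not tested. Replicates share only a number, with deviations correlated at 0.00085 to 0.056; with the replicate number as a block TUBB2B in KURAMOCHI did not pass (adjusted p = 0.0625), 8 members passed as lower there, and it changed no other call.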
